A study of Mus musculus with 8 samples.

Results

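The receptors described here are those through which spinal motor neurons receive survival factors: the GDNF receptor kinase gene Ret and its partners Gfra1, Gfra2, Gfra3 and Gfra4, the neurotrophin receptor genes Ntrk2, Ntrk3 and Ngfr, and the cytokine receptor genes Lifr and Cntfr. They were chosen by name, as the array probes whose RefSeq accession belongs to one of these 10 symbols. The rule found 19 probes for the 10 genes, among 37277 genes and unnamed transcripts on the array. RNA was measured on 8 arrays of motor neuron cultures grown from male mouse embryonic stem cells of an Hb9GFP line, in which a motor neuron promoter drives green fluorescent protein. Embryoid bodies, the cell aggregates in which the stem cells differentiate, received retinoic acid and Shh from day 2, were split into single cells on day 5 and were then kept with GDNF until the RNA was taken. Control cultures and cultures lacking Litchi were each sampled at day 7 and at day 9, which makes 4 groups of 2 arrays, and all 4 had received GDNF. The labels do not give the number of knockout clones, the part of Litchi that was removed or whether the 2 replicates of a group were grown separately. The p-values therefore rest on the spread among these arrays, and part of it could be technical.

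RET is a receptor tyrosine kinase that cannot bind its ligands alone. GDNF binds GFRA1, neurturin binds GFRA2, artemin binds GFRA3 and persephin binds GFRA4, and each of these membrane-anchored co-receptors then presents its ligand to RET. TrkB, the product of Ntrk2, is the kinase receptor of BDNF and TrkC, the product of Ntrk3, that of NT-3, while the p75 receptor made from Ngfr binds all neurotrophins and has no kinase. Both Ntrk2 and Ntrk3 also give truncated receptors that lack the kinase, and in the nervous system truncated TrkB is prominent in glia. CNTFR holds ciliary neurotrophic factor on the cell surface and signals through LIFR and gp130, which is encoded by Il6st, to the JAK and STAT proteins.

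The upstream sequences of 3 receptor genes that passed a test below are printed because their changes with day or genotype are the ones the results turn on. They hold the 250 bases before the annotated start, 5′ to 3′ on the strand of the gene, from RefSeq on GRCm38.p6. A promoter entry was found for 6 of the 10 genes, and Gfra2 had none. Ntrk2 lies at chr13:58806319-58806568 on the plus strand, Gfra1 at chr19:58455399-58455648 on the minus strand and Ngfr at chr11:95587699-95587948 on the minus strand. Capitals mark matches on either strand to the GC box GGGCGG, the E box CANNTG, the TATA box TATAAA, the CCAAT box CCAAT, the homeodomain core TAATTA, the RBPJ core TGGGAA or the STAT site TTCNNNGAA.
Ntrk2: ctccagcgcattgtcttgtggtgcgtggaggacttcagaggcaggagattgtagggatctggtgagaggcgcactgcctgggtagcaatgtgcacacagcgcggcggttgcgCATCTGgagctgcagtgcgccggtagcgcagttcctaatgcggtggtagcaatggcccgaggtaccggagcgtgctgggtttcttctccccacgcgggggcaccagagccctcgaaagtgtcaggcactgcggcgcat
Gfra1: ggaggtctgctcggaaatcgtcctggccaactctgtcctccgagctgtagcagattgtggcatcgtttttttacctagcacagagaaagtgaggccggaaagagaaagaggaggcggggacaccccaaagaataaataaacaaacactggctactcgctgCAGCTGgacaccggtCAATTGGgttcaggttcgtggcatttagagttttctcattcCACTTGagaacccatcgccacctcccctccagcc
Ngfr: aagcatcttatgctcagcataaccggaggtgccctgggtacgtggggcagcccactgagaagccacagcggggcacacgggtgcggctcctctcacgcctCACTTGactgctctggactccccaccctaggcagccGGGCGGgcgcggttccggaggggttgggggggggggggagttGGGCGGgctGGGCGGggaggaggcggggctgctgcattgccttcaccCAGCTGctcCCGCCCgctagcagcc

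The window of Ngfr was 70.4% G and C and held 4 GC boxes and 2 E boxes. That of Ntrk2 was 62.8% G and C and held 1 E box. That of Gfra1 was 52.4% G and C, which is also the median over all promoters of the table, and held 3 E boxes and 1 CCAAT box, the latter overlapping an E box. None of the 3 windows held a match to the other 4 motifs. Over the 32841 promoters of the table, 32.7% held the GC box, 66.2% the E box, 33.9% the CCAAT box, 12.4% the TATA box, 4.84% the homeodomain core, 21.6% the RBPJ core and 7.02% the STAT site in a window of the same length. A match is a description of the letters and not a measured binding site.

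A receptor's level is given as the log2 processed signal of its probe minus the 75th percentile of the same array, so that 0 is that percentile and 1 unit is a 2-fold difference. Probes differ in how brightly they bind, so a level is compared between arrays and not between genes. The 75th percentile itself ran from 649 to 1691 intensity units, the 4 arrays of replicate 1 were the brighter ones, and the arrays of a group correlated across genes at r between 0.989 and 0.994. All 19 probes of the 10 genes were well above background on all 8 arrays. Where a gene had several probes, the one with the highest mean stood for it. The motor neuron genes Isl1 and Chat were well above background on all 8 arrays, as were the other 8 genes of the motor neuron list. Litchi was not found among the array's gene names, so the labels could not be checked against the targeted gene.

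**Figure D1:**
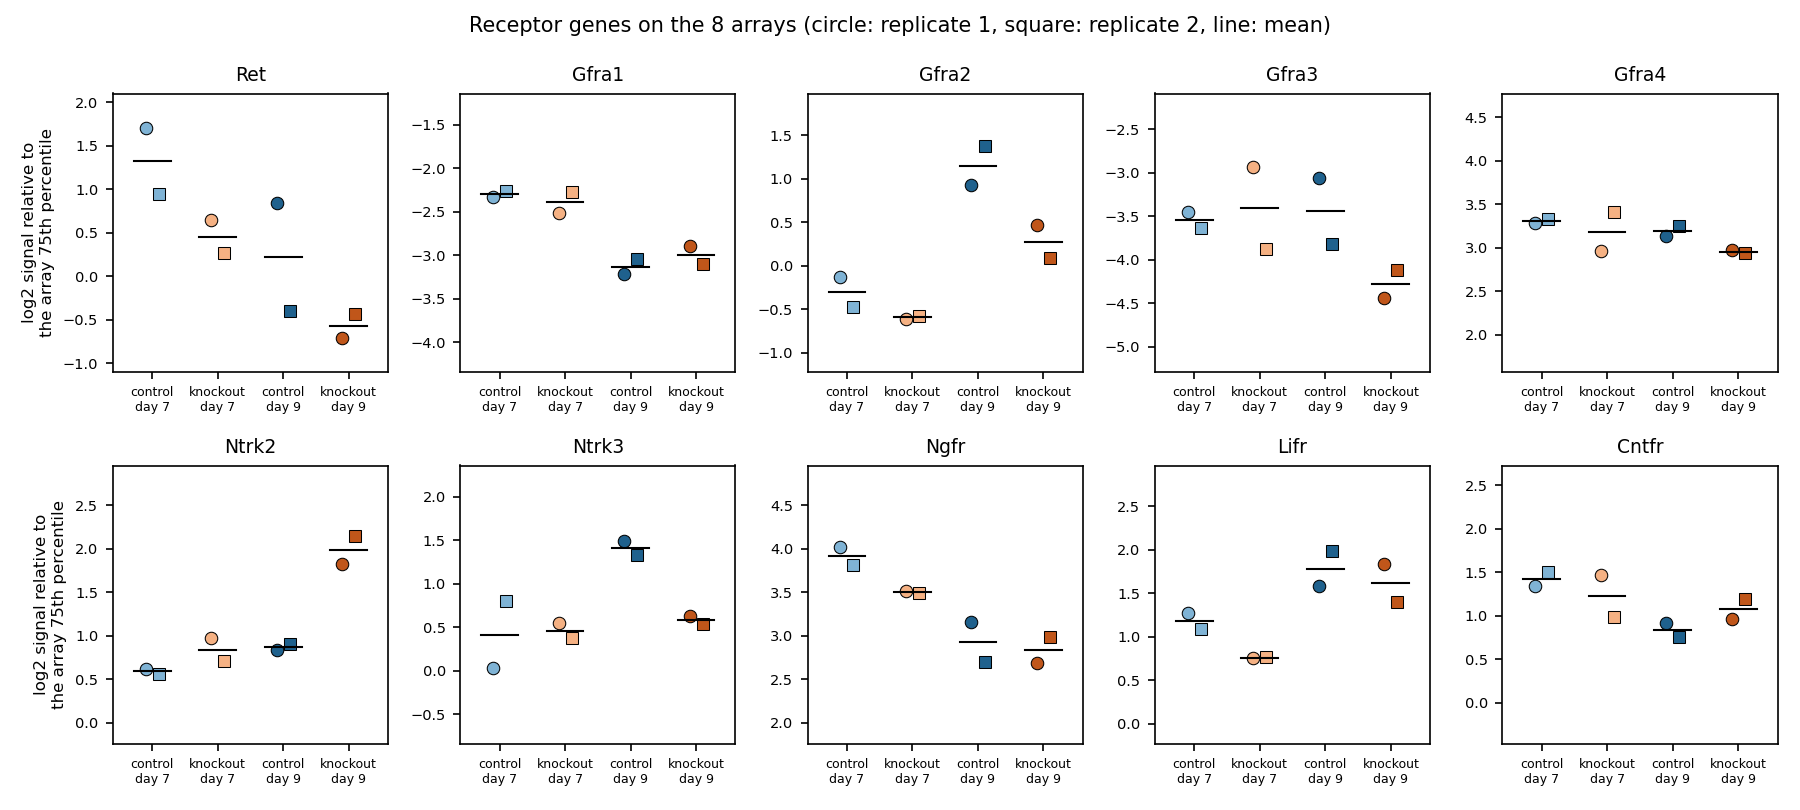
Each panel plots one receptor gene, with the log2 signal relative to the array's 75th percentile on the y axis (every panel spans the same range of log2 units) and the 4 groups on the x axis; circles are replicate 1, squares replicate 2 and lines group means. The 2 knockout day 9 arrays lie at 1.82 and 2.15 for Ntrk2, above the other 6 arrays, whereas within each genotype Ret, Gfra1 and Ngfr lie lower on day 9 than on day 7.

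Few of the receptors passed a test, and which ones did differed between comparisons. With limma and Benjamini-Hochberg adjustment over 24632 genes (a gene is called at an adjusted p under 0.05), 0 of the 10 receptors were called for knockout against control on day 7, where 0.215% of all genes were called and 0 receptors had an unadjusted p under 0.05, which 18.9% of all genes had. On day 9 1 receptor was called, Ntrk2, higher in the knockout, against 5.47% of all genes. From day 7 to day 9, 3 receptors were called in control cells, Gfra2 higher and Gfra1 and Ngfr lower, against 7.37% of all genes. In knockout cells 1 receptor was called over the same days, Ntrk2, which rose, against 8.31% of all genes. For the mean knockout effect of both days 1 receptor was called, again Ntrk2, against 14.8% of all genes. For the difference between the knockout effects of the 2 days 0 receptors were called by limma, against 0.00406% of all genes, and 2 receptors, Ntrk2 and Ntrk3, had an unadjusted p under 0.05, which 6% of all genes had. The median log2 change of the 10 receptors was -0.16 on day 7 and -0.20 on day 9 for knockout against control, beside -0.05 and -0.02 over all genes. For day 9 against day 7 it was -0.01 in control cells and -0.19 in knockout cells, beside -0.12 in both over all genes.

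**Figure D2:**
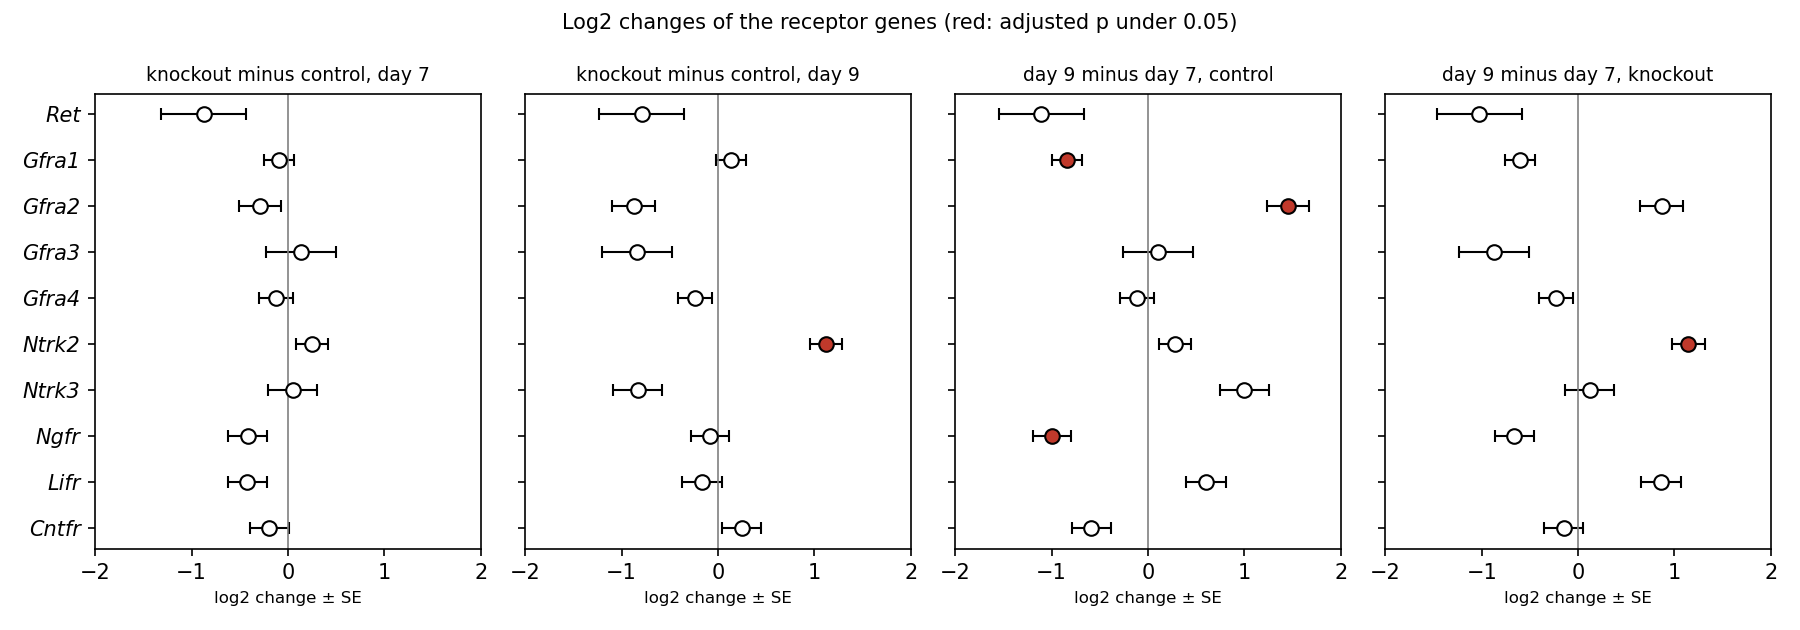
Points are log2 changes of the 10 receptor genes from limma in 4 comparisons, with the standard error as bars and red marking an adjusted p under 0.05. The panels for knockout against control hold 1 red point, Ntrk2 on day 9 at 1.12, and those for day 9 against day 7 hold 3 in control cells and 1 in knockout cells.

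Among the GDNF receptors, Ret was lower on day 9 than on day 7 and lower in knockout than in control cells on each day, but its replicates were far apart. Ret (chromosome 6) stood at 1.71 and 0.94 in control day 7, 0.64 and 0.26 in knockout day 7, 0.84 and -0.40 in control day 9 and -0.71 and -0.43 in knockout day 9. The knockout arrays lay below the control arrays on both days without overlap, and knockout day 7 overlapped control day 9. The mean knockout effect on Ret was -0.83 ± 0.31 (SE, limma adjusted p = 0.119), and its change from day 7 to day 9 was -1.11 ± 0.44 in control (adjusted p = 0.177) and -1.03 ± 0.44 in knockout cells (adjusted p = 0.203). None of these passed. Without control day 9 replicate 2, the array of that pair nearest to the knockout day 9 values, the mean knockout effect on Ret was -1.14. Leaving out replicate 1 instead kept only the value of -0.40 for control day 9, and so gave a smaller effect.

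Gfra1, the GDNF co-receptor gene (chromosome 19), fell in control cells from day 7 to day 9. It stood at -2.33 and -2.26 in control day 7, -2.51 and -2.27 in knockout day 7, -3.22 and -3.04 in control day 9 and -2.89 and -3.10 in knockout day 9. The days were apart in both genotypes, while control and knockout overlapped on each day. The change was -0.84 ± 0.16 in control cells (limma adjusted p = 0.0315), and -0.60 ± 0.16 in knockout cells, where it missed the threshold (adjusted p = 0.0658). The difference between those changes was 0.23 ± 0.22 (adjusted p = 0.91). With normexp background correction the control change was -0.53 (adjusted p = 0.236). The call was also lost without either control day 7 array (adjusted p = 0.0888 for replicate 1 and 0.143 for replicate 2), either control day 9 array (0.0979 and 0.114) or either knockout day 9 array (0.0573 each).

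Gfra2, the neurturin co-receptor gene (chromosome 14), rose in control cells over the same days. Its values were -0.13 and -0.47 in control day 7, -0.61 and -0.57 in knockout day 7, 0.93 and 1.37 in control day 9 and 0.46 and 0.09 in knockout day 9. All 4 groups were apart from their neighbours, in the order control day 9, knockout day 9, control day 7 and knockout day 7. The rise was 1.45 ± 0.22 in control cells (limma adjusted p = 0.0196) and 0.87 ± 0.22 in knockout cells (adjusted p = 0.0641). Knockout against control was -0.87 ± 0.22 on day 9 (adjusted p = 0.0720) and -0.58 ± 0.16 for both days (adjusted p = 0.0527), so neither passed. The control rise was lost without control day 7 replicate 2 (adjusted p = 0.112) or control day 9 replicate 2 (0.0997).

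The other co-receptors, Gfra3 for artemin (chromosome 18) and Gfra4 for persephin (chromosome 2), passed in no comparison. Gfra3 ran from -3.87 to -2.94 in the other 6 arrays and lay at -4.44 and -4.12 in knockout day 9, below all of them. Its knockout change on day 9 was -0.84 ± 0.37 (limma adjusted p = 0.211). Gfra4 varied little, between 2.94 and 3.41 over the 8 arrays, and its other 2 probes did not pass either.

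Ntrk2, the TrkB gene (chromosome 13), was the one receptor called between the genotypes on day 9, but its 3 probes did not all move the same way. The probe that stands for the gene, A_55_P2006792, read 0.62 and 0.56 in control day 7, 0.97 and 0.71 in knockout day 7, 0.83 and 0.90 in control day 9 and 1.82 and 2.15 in knockout day 9. Both knockout day 9 arrays lay above all others. Knockout against control was 1.12 ± 0.17 on day 9 (limma adjusted p = 0.0244), 0.25 ± 0.17 on day 7 (adjusted p = 0.469) and 0.68 ± 0.12 for both days (adjusted p = 0.0193). From day 7 to day 9 it rose by 1.15 ± 0.17 in knockout cells (adjusted p = 0.0128), whereas the change in control cells was 0.28 ± 0.17 (adjusted p = 0.342). The test of the difference between the 2 knockout effects gave 0.87 ± 0.24, with an unadjusted p of 0.0088 and an adjusted p of 0.753.

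The call of Ntrk2 on day 9 was lost without control day 9 replicate 1 (adjusted p = 0.115) or replicate 2 (0.0641) and without knockout day 9 replicate 1 (0.0628) or replicate 2 (0.140), with a change between 0.95 and 1.28. That of the rise in knockout cells was lost without knockout day 7 replicate 2 (0.0787) or knockout day 9 replicate 2 (0.0689). That of the mean effect was lost without knockout day 7 replicate 1 (0.0553), control day 7 replicate 2 (0.0517), control day 9 replicate 1 (0.0599) or knockout day 9 replicate 2 (0.0658).

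Of the other 2 Ntrk2 probes, one followed the first and one went the other way. A_65_P04961 carries the accession NM_008745, a transcript of truncated TrkB, and read -4.59 and -4.55 in control day 7, -4.30 and -4.73 in knockout day 7, -3.95 and -3.66 in control day 9 and -2.71 and -2.37 in knockout day 9. A_51_P393454 carries NM_001025074, a transcript of full-length TrkB, and read -1.15 and -1.46 in control day 7, -1.39 and -1.81 in knockout day 7, 0.44 and -0.06 in control day 9 and -0.80 and -0.98 in knockout day 9. The highest arrays were thus those of knockout day 9 for the former and of control day 9 for the latter, each apart from the next group. A_55_P2006792 is listed under NM_001025074 as well. The files used here do not give the stretch of transcript each probe matches, so none of the 3 can be tied to one receptor form.

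In a fit of 33188 single probes, A_65_P04961 was higher in the knockout on day 9 by 1.27 ± 0.21 (limma adjusted p = 0.0324), and 4.3% of all probes were called there. For the mean of both days the same probe changed by 0.66 ± 0.15 (adjusted p = 0.0368), and A_51_P393454 changed by -0.69 ± 0.17 (adjusted p = 0.0453), where 13.2% of probes were called. A_51_P393454 missed the threshold on day 9, at -1.08 ± 0.24 (adjusted p = 0.0576). From day 7 to day 9, A_51_P393454 rose in control cells by 1.50 ± 0.24 (adjusted p = 0.0224, with 6.13% of probes called), a call kept in 2 of 8 fits without 1 array, those without a knockout day 7 array (adjusted p from 0.0331 to 0.125), and A_65_P04961 rose in knockout cells by 1.98 ± 0.21 (adjusted p = 0.00744, with 7.57% called). Probes called in opposite directions for the mean knockout effect were found in 4 of 5882 genes with several probes. The test of the disagreement itself, on the difference of 2 probes within each array, gave -2.20 ± 0.26 on day 9 (limma adjusted p = 0.107) and -1.37 ± 0.18 for both days (adjusted p = 0.0879) for A_51_P393454 against A_55_P2006792. Neither passed, with 0 and 10 of 8556 such differences called, which is 0% and 0.117%, and unadjusted p-values of 0.000126 and 0.000257.

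Over the 8 arrays A_55_P2006792 and A_65_P04961 correlated at r = 0.96, and A_51_P393454 with them at r = 0.10 and 0.35. The direction of the day 9 and mean knockout effects of all 3 probes was kept in 12 other fits (3 other scalings or background corrections, a replicate block and 8 fits without 1 array). Some of these fits could not change it. The block leaves both estimates as they are, and leaving out a day 7 array does not alter the day 9 estimate. The calls were less steady. The mean effect of A_51_P393454 was called in 1 of 8 fits without 1 array, that without control day 9 replicate 2, and over these fits its adjusted p ran from 0.0403 to 0.138. That of A_65_P04961 was called in 0 of 8, with adjusted p from 0.0514 to 0.116, and its day 9 effect in 2 of 8, those without a knockout day 7 array. With normexp all 3 calls of A_65_P04961 were lost, at 0.66 for the day 9 effect (adjusted p = 0.334), 0.34 for the mean effect (0.394) and 1.01 for the rise in knockout cells (0.148), and that of A_55_P2006792 on day 9 had an adjusted p of 0.0556 in the fit of single probes. The mean effect of A_51_P393454 missed the threshold with quantile normalization (0.0576), median centring (0.0870) and normexp (0.0581). When the 3 probes were averaged, Ntrk2 changed by 0.44 on day 9 (adjusted p = 0.158), so the call rests on which probe stands for the gene.

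**Figure D3:**
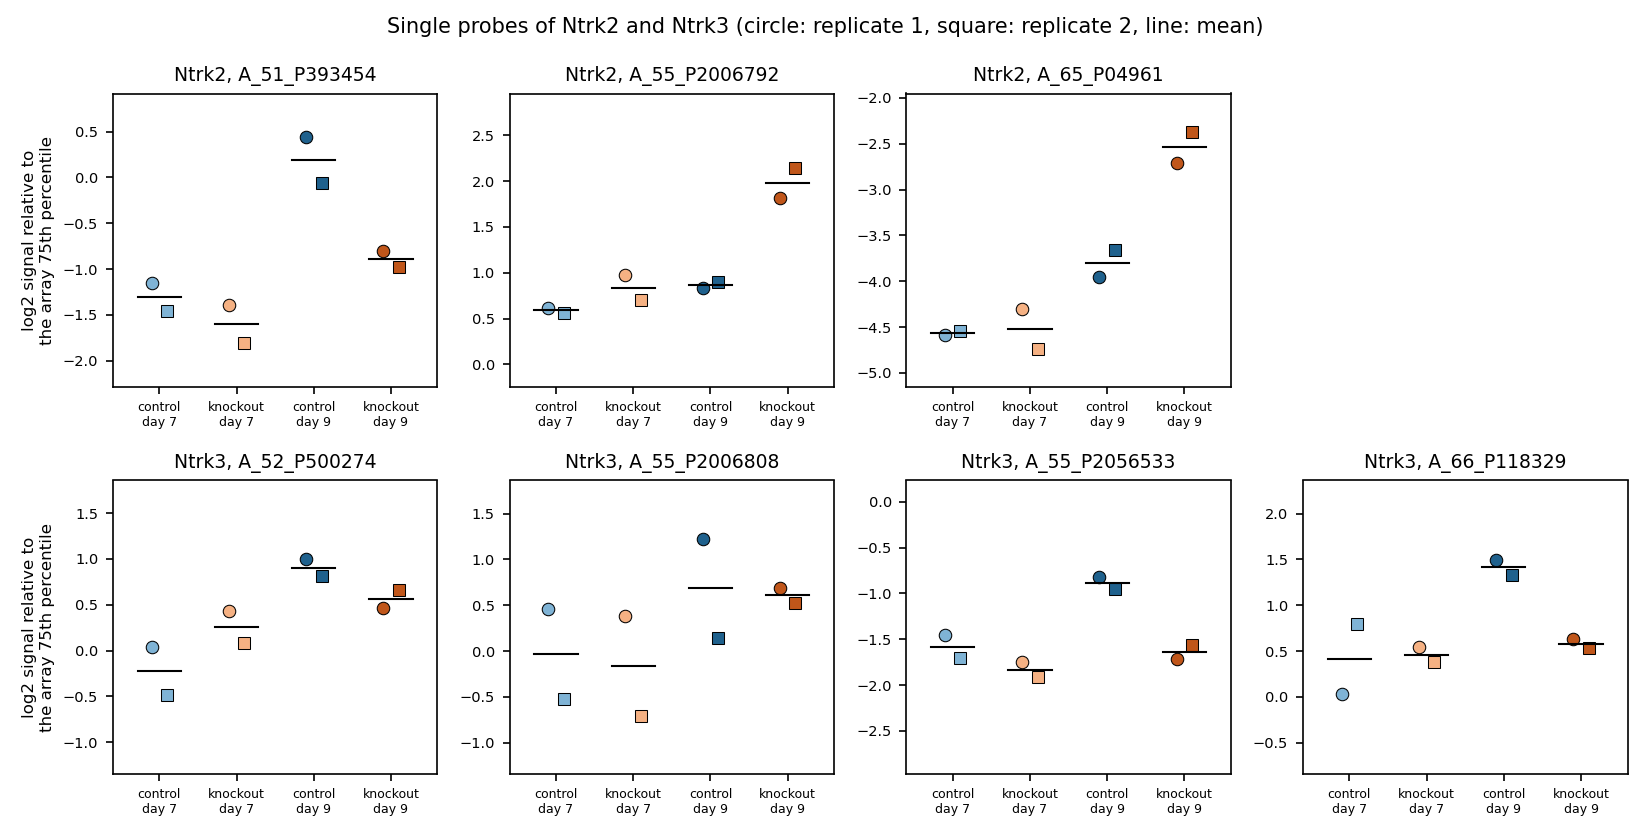
Panels plot each Ntrk2 probe (top) and Ntrk3 probe (bottom) as log2 signal relative to the array's 75th percentile, by group, with circles for replicate 1, squares for replicate 2 and lines for means; every panel spans the same range of log2 units. For Ntrk2, knockout day 9 is the highest group in A_55_P2006792 and A_65_P04961, while control day 9 is the highest, at 0.44 and -0.06, in A_51_P393454.

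Ntrk3, the TrkC gene (chromosome 7), was highest in control cells on day 9. The probe that stands for it, A_66_P118329, read 0.03 and 0.80 in control day 7, 0.54 and 0.38 in knockout day 7, 1.49 and 1.33 in control day 9 and 0.63 and 0.53 in knockout day 9. Control day 9 was apart from the other groups, which overlapped. Knockout against control was -0.83 ± 0.25 on day 9 (limma adjusted p = 0.107) and the change with time in control cells 1.00 ± 0.25 (adjusted p = 0.0661), so neither passed. Of its other 3 probes, A_55_P2056533, which is listed under NM_008746 for full-length TrkC, was lower in the knockout over both days by -0.50 ± 0.11 (adjusted p = 0.0346). A_52_P500274, listed under NM_182809 for a truncated form, rose with time in control cells by 1.13 ± 0.23 (adjusted p = 0.0399). For A_55_P2056533, leaving out any 1 of the 8 arrays lost that call (adjusted p between 0.0534 and 0.101), as did quantile normalization (0.0503), median centring (0.106) and normexp (0.0504), and that of A_52_P500274 was kept in 1 of 8 such fits, without control day 7 replicate 1 (adjusted p between 0.0454 and 0.159), and lost with normexp (0.0761). On day 9 the changes of all 4 probes ran from -0.83 to -0.08, and none passed.

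Ngfr, the p75 gene (chromosome 11), was lower on day 9. It read 4.02 and 3.82 in control day 7, 3.51 and 3.49 in knockout day 7, 3.15 and 2.69 in control day 9 and 2.69 and 2.99 in knockout day 9. The genotypes were apart on day 7 and overlapped on day 9, and the days were apart in both genotypes. The fall was -0.995 ± 0.20 in control cells (limma adjusted p = 0.0380), and the change in knockout cells was -0.66 ± 0.20 (adjusted p = 0.0968). Knockout against control was -0.42 ± 0.20 on day 7 (adjusted p = 0.316) and -0.08 ± 0.20 on day 9 (adjusted p = 0.823). Many genes of chromosome 11 were called higher in the knockout on day 9, 9.19% of 1251 against 1.36% of genes elsewhere, and Ngfr was not among them. For the mean knockout effect of both days the shares were 30.1% and 5.24%, and Ngfr was not called there either. The fall in control cells was near the threshold: with quantile normalization its adjusted p was 0.0505, and it was lost without any one array but control day 9 replicate 1. Those adjusted p-values were 0.127 without either control day 7 array, 0.165 without control day 9 replicate 2, 0.0654 without either knockout day 7 array and 0.0641 without either knockout day 9 array.

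Of the cytokine receptor genes, Lifr was higher on day 9 in both genotypes and Cntfr lower in control cells, and neither passed in any comparison. Lifr (chromosome 15) read 1.27 and 1.08 in control day 7, 0.75 and 0.76 in knockout day 7, 1.58 and 1.98 in control day 9 and 1.83 and 1.40 in knockout day 9. The days were apart in both genotypes, with changes of 0.60 ± 0.21 in control (limma adjusted p = 0.130) and 0.86 ± 0.21 in knockout cells (adjusted p = 0.0551). The change over those days was positive for all 3 Lifr probes in both genotypes. Cntfr (chromosome 4) read 1.34 and 1.50 in control day 7, 1.48 and 0.99 in knockout day 7, 0.91 and 0.75 in control day 9 and 0.96 and 1.20 in knockout day 9. Its change in control cells was -0.59 ± 0.20 (limma adjusted p = 0.128). In knockout cells the days overlapped, with a change of -0.15 ± 0.20 (limma adjusted p = 0.676). On day 9 the knockout arrays lay just above the controls, by 0.25 ± 0.20 (limma adjusted p = 0.481). Il6st, which encodes the gp130 chain that both share, changed by 0.64 ± 0.15 with time in control cells (adjusted p = 0.0519) and by 0.08 ± 0.15 between genotypes on day 9 (adjusted p = 0.777).

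The list of GDNF family ligands, further GDNF co-receptors and other cell surface proteins had 9 of 11 genes measured. On day 9, 3 of the 9 were lower in the knockout and 0 higher, where 5.47% of all genes were called. Ncam1, which binds GDNF together with GFRA1, changed by -0.63 ± 0.12 (limma adjusted p = 0.0388), Sdc3, a heparan sulphate proteoglycan that binds GDNF, by -0.79 ± 0.14 (adjusted p = 0.0344) and Cdh4, a cadherin, by -0.92 ± 0.19 (adjusted p = 0.0466). The median change of the list was -0.26, beside -0.02 over all genes. From day 7 to day 9, Sdc3 and Cdh4 rose in control cells (2 of 9) and Cdh4 in knockout cells (1 of 9). The shares of all genes called were 7.37% and 8.31%. Gdnf itself was dim, at -6.64 to -3.69, and below background in control day 7 replicate 2. Its knockout change on day 7 was 1.66 ± 0.67 (adjusted p = 0.254), and those of the ligand genes Nrtn and Artn were -0.02 ± 0.14 (adjusted p = 0.957) and 0.27 ± 0.31 (adjusted p = 0.685). Pspn did not pass the filter on dim probes.

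Of the neurotrophins and their other receptors and partners, 16 of 18 genes were measured. Over both days 3 of them were lower in the knockout (Ntf3, Sorcs1 and Sorcs3), where 14.8% of all genes were called. From day 7 to day 9 in knockout cells 2 rose (Sorcs1 and Sorcs2), where 8.31% of all genes were called. Ntf3, which encodes NT-3, was lower in the knockout over both days by -0.85 ± 0.17 (adjusted p = 0.0248), and was -0.99 ± 0.24 on day 9 alone (adjusted p = 0.0627). Bdnf differed between genotypes on day 9 by -0.04 ± 0.18 (adjusted p = 0.901). Among the sortilin-related sorting receptors, Sorcs2 rose with time in both genotypes, by 1.27 ± 0.19 in control (adjusted p = 0.0194) and 1.53 ± 0.19 in knockout cells (adjusted p = 0.00872), and Sorcs1 rose in knockout cells by 0.68 ± 0.14 (adjusted p = 0.0368). Over both days Sorcs1 and Sorcs3 were lower in the knockout, by -0.69 ± 0.10 and -1.1 ± 0.24 (adjusted p = 0.0146 and 0.0317).

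Of the IL-6 family cytokines and receptor chains, 11 of 13 genes were measured. Cntf, the CNTFR ligand, fell in control cells from day 7 to day 9 by -0.77 ± 0.15 (limma adjusted p = 0.0348), and its change in knockout cells was -0.60 ± 0.15 (adjusted p = 0.0596). The IL-6 receptor gene Il6ra rose in knockout cells by 1.1 ± 0.18 (adjusted p = 0.0179) and was lower in the knockout over both days by -0.62 ± 0.13 (adjusted p = 0.0279). The cytokine gene Ctf2 was higher in the knockout on day 9 by 0.84 ± 0.14 (adjusted p = 0.0296), but was dim, at -5.16 to -4.19, and below background on 1 array. Ctf1, which encodes cardiotrophin-1, and Il11ra1 were higher in the knockout over both days, by 0.72 ± 0.16 (adjusted p = 0.0328) and 0.37 ± 0.10 (adjusted p = 0.049). Lif did not pass the filter.

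Inside the cell, the adaptors and kinases that couple the receptor kinases to RAS and PI3 kinase had 1 of 30 measured genes called on day 9, Dok4, a docking protein for RET, lower in the knockout by -0.97 ± 0.15 (limma adjusted p = 0.0251). Over both days 5 of the 30 were lower and 0 higher, a share near the 14.8% of all genes called there. They were Dok4, the docking protein gene Gab2, the SHC adaptor genes Shc2 and Shc3 and the RAS exchange factor gene Sos1, with changes between -0.77 and -0.44. The median change of the list over both days was -0.13, beside -0.04 over all genes. Shc2 also fell with time in both genotypes, by -0.75 ± 0.16 in control (adjusted p = 0.0443) and -0.74 ± 0.16 in knockout cells (adjusted p = 0.0408), and Nras in control cells by -0.56 ± 0.12 (adjusted p = 0.0466).

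Of transcripts that follow RET or ERK activity 16 were measured. On day 9 1 of them was lower in the knockout and 0 were higher, and over both days 2 were lower, Dusp6 and Etv5, shares near the 5.47% and 14.8% of all genes called. The one on day 9 was Dusp6, a phosphatase that turns ERK off, at -1.04 ± 0.19 (limma adjusted p = 0.0372). The median of the list was -0.30 on day 9, beside -0.02 over all genes. Etv5, an ETS factor gene induced through RET, was lower over both days by -1.0 ± 0.22 (adjusted p = 0.0328). Its relative Etv4 fell in knockout cells from day 7 to day 9 by -2.34 ± 0.43 (adjusted p = 0.0259), from 2.39 and 2.09 to -0.47 and 0.26. In control cells Etv4 went from 2.63 and 2.24 to 1.87 and 0.66, a change of -1.16 ± 0.43 (adjusted p = 0.152), and the difference between the genotypes was -1.18 ± 0.61 (adjusted p = 0.85). Dusp4 fell in knockout cells by -1.63 ± 0.32 (adjusted p = 0.0304), and the immediate early gene Egr1 fell in both genotypes, by -1.88 ± 0.25 in control (adjusted p = 0.0148) and -1.39 ± 0.25 in knockout cells (adjusted p = 0.0236).

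Of 22 JAK and STAT genes and their inhibitors, 0 were higher and 1 lower in the knockout on day 9, near the 5.47% of all genes called. The 1 was the inhibitor gene Socs2, at -0.70 ± 0.14 (limma adjusted p = 0.0441). Over both days Socs1 and Stat6 were higher, by 0.97 ± 0.18 (adjusted p = 0.0235) and 0.92 ± 0.21 (adjusted p = 0.0354), and Socs2 lower. These are 2 higher and 1 lower of 22, near the 14.8% of all genes called. Socs1 rose with time in control cells, by 1.15 ± 0.26 (adjusted p = 0.0489). Socs2 fell in knockout cells by -0.70 ± 0.14 (adjusted p = 0.0342). Socs3 and Stat3, genes of the pathway below LIFR, differed between genotypes on day 9 by 0.50 ± 0.30 (limma adjusted p = 0.339) and 0.32 ± 0.21 (limma adjusted p = 0.383). RNA levels do not show whether the STAT3 protein was active.

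**Figure D4:**
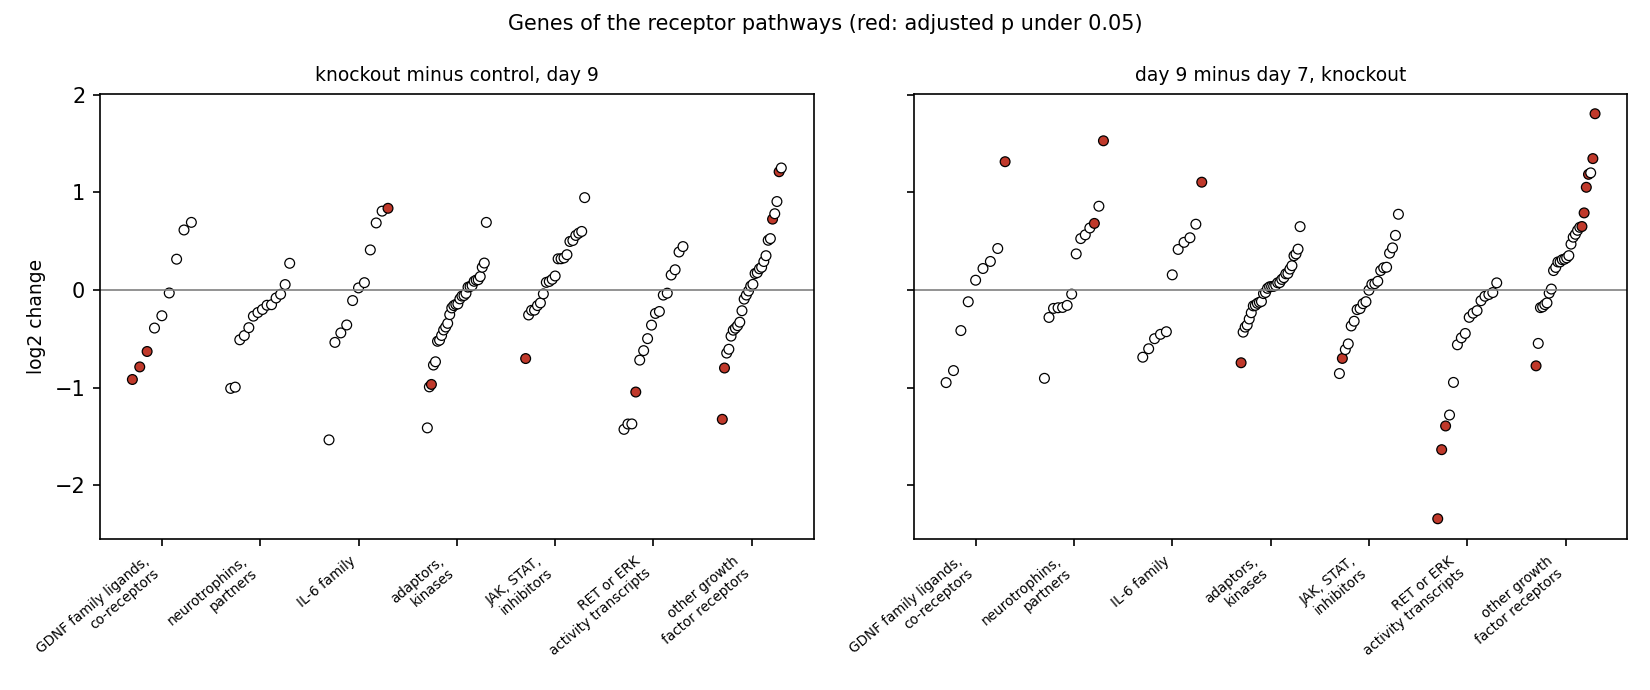
Each point is a gene of the 7 lists of ligands, partners, signalling proteins and other receptors, placed by its log2 change from limma in knockout against control on day 9 (left) and day 9 against day 7 in knockout cells (right), in rising order within a list; red marks an adjusted p under 0.05. Genes not reported here are left out. On the left Pdgfrb lies at 1.21 and Alk at -1.32, and the lowest point on the right is Etv4 at -2.34.

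A list of other growth factor receptors had 28 of 31 genes measured, and its calls went both ways. Some of its genes, Pdgfrb among them, are also on the marker lists of other cell types. On day 9 Pdgfrb and Bmpr1b, receptor genes for PDGF and BMP, were higher in the knockout, by 1.21 ± 0.19 (limma adjusted p = 0.0274) and 0.73 ± 0.14 (adjusted p = 0.0414). Alk, a receptor tyrosine kinase gene of developing neurons, and Met, the HGF receptor gene, were lower, by -1.32 ± 0.24 (adjusted p = 0.0355) and -0.80 ± 0.14 (adjusted p = 0.0331). From day 7 to day 9 in knockout cells 6 of the 28 rose (Tgfbr2, Ptprz1, Nrp2, Fgfr3, Fgfr4 and Nrp1, by 0.65 to 1.81) and Met fell. The share of all genes called was 8.31% there and 7.37% in control cells. In control cells 3 of the 28 rose, Tgfbr2 by 2.08 ± 0.23 (adjusted p = 0.00896), Nrp2 by 1.01 ± 0.21 (adjusted p = 0.0431) and Nrp1 by 0.67 ± 0.13 (adjusted p = 0.033). Over both days 3 of the 28 were higher in the knockout (Pdgfrb, Egfr and Erbb2) and 5 lower (Alk, Flt1, Ptprz1, Met and Igf2r). Of all genes 14.8% were called there. Whether chromosome position had a part in these calls was not tested. Over all 7 lists there were 70 calls of a gene in a comparison. Of these, 2 were kept in all 8 fits that left out 1 array, Dok4 and Pdgfrb for the mean knockout effect, and 18 were kept in none. Of the 12 calls on day 9, 7 were kept in none (Ncam1, Sdc3, Cdh4, Ctf2, Socs2, Met and Bmpr1b), with adjusted p-values between 0.050 and 0.224.

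The makeup of the cultures differed between the groups, and in bulk RNA fewer cells of a type and less RNA per cell cannot be told apart. The summed level of the 10 motor neuron markers, in log2 units, was 5.94 to 5.97 in control day 7, 5.76 to 5.83 in knockout day 7, 5.26 to 5.58 in control day 9 and 4.99 to 5.02 in knockout day 9, the same order of groups as for Ret and Ngfr. On day 9, 4 of the 10 were called lower in the knockout and 1 higher. Of all genes 5.47% were called on day 9, a share that also stands beside the day 9 counts below. Of 10 measured astrocyte and radial glia markers, 2 were called higher on day 9 in the knockout and 0 lower. They were Hes5, by 1.85, and Sox9, by 1.53 (limma adjusted p = 0.036 and 0.048). The change was positive for 5 of the 10, and the median change of the list was 0.03. The summed level of that list was 8.58 to 8.85 in control day 9 and 8.64 to 8.86 in knockout day 9, and its defining markers Gfap and S100b did not pass the filter on dim probes. Of 12 fibroblast and mural cell markers, a list that also holds Pdgfrb, 5 were called higher on day 9, with a summed level of 6.37 to 6.48 in control and 7.09 to 7.29 in knockout cells. The summed level of 9 neural crest and sensory markers on day 9 was 0.09 to 0.30 in control and 0.58 to 0.77 in knockout cells. The 10 spinal progenitor markers had 4 called higher and 1 lower, with sums of 5.69 to 5.87 and 5.93 to 6.05. The summed level of 9 autonomic and enteric neuron markers was lower in the knockout on both days without overlap. It was 5.02 to 5.18 in control and 4.05 to 4.31 in knockout day 7. On day 9 it was 4.58 to 4.63 in control and 3.65 to 4.00 in knockout cells. The single markers were mixed, with 2 of the 9 called higher and 2 lower on day 9. Over both days 1 was called higher and 4 lower, beside 14.8% of all genes called. Of the 9 changes over both days 5 were positive, with a median of 0.05. Of 9 trophoblast markers 6 were called lower in the knockout on day 9, with a median change of -3.50. Their summed level, which the brightest markers dominate, differed less, at 7.26 to 7.56 in control and 6.80 to 6.90 in knockout day 9. Of 8 pluripotent cell markers 7 were called lower over both days, where 14.8% of all genes were called. The part of these cell types in the receptor changes was not tested.

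The genes most like each receptor were those with the highest Pearson correlation over the 8 arrays, among 15029 named genes. With so many genes and only 8 arrays, a high r is easily reached and is given as a description only. Ret was nearest to Clstn2 (r = 0.99), a synaptic calsyntenin gene, Gfra1 to Faap20 (r = 0.99), Gfra2 to Spef2 and Neto1 (r = 0.99 for both), Gfra3 to Cpsf4l (r = 0.96) and Gfra4 to Cetn1 (r = 0.98). Ntrk3 was nearest to Slc35a2 (r = 0.94), Ngfr to Gimap8 (r = 0.99), Lifr to Shisa6 (r = 0.99) and Cntfr to Fam133b (r = 0.98). The Ntrk2 probes again parted ways. A_55_P2006792 was nearest to Tob1, Snx21 and Gm11346 (r = 0.98 each), and A_65_P04961 to Slc39a1, Apcdd1 and Boc (r = 0.98 each), the last a hedgehog co-receptor gene. A_51_P393454 was nearest to Ankrd34b, Cpne4 and Glra2 (r = 0.99 each), of which Glra2 encodes a glycine receptor subunit of neurons.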

How the data were processed

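RNA of 8 samples was measured on 1-colour Agilent arrays. The submitters' processing notes name Feature Extraction 10.5.1. The deposited scanner files give, per the file headers, a processed intensity for each spot, from which background had been subtracted. Log2 values deposited by the authors served as an alternative. Their Pearson correlation with the log2 signal was at least 0.998 and their offset is unknown. Probes were named through their RefSeq accession. Values were log2 intensity minus each array's 75th percentile, with spots of a probe averaged. A probe was kept where both arrays of some group were well above background, and the probe with the highest mean stood for its gene. The tests were limma 3.58.1 (R 4.3.3) on 4 group means of 8 arrays (4 residual and 2.53 prior degrees of freedom), two-sided, with Benjamini-Hochberg adjustment over 24632 genes, called at 0.05, and were tested on simulated data. Precision is limited by 2 arrays a group. Named were all 10 receptors with every probe, genes of 7 pathway lists called in any comparison (at most 6 per list and comparison, by adjusted p), a set of ligands and readouts in any case, and the nearest genes of each receptor. The receptors and lists were chosen with earlier results of these data known. The fits of single probes without 1 array, of probe differences and the motifs were added after seeing the data. Mnx1 is not analysed here, and some genes of the lists are not reported here.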

Additional observations from a re-analysis of the deposited data

How the results depend on the processing

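With 2 arrays a group the receptor calls were near the limit of what these arrays resolve. For knockout against control on day 9, where 1 receptor was called, 0 were called with no filter on dim probes, with the mean of all probes of a gene and with only the 2 groups compared, 2 with a variance trend, and 0 to 2 without 1 array. For day 9 against day 7 in control cells, where 3 were called, normexp gave 1, no filter 0, only the 2 groups 0, each probe on its own 5 and leaving out 1 array 0 to 2. In knockout cells, where 1 was called, centring on the median gave 3, no filter 0, requiring signal on all arrays 3, a variance trend 3 and leaving out 1 array 0 to 1. For the mean knockout effect, where 1 was called, no filter gave 0, signal on all arrays 2, the mean of probes 0, a variance trend 2, each probe on its own 2 and leaving out 1 array 0 to 2. The cause was not tested. A fit on only the 2 groups does not exist for the mean effect or the difference between days.

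Centring each array on its median moved the median of all genes from -0.02 to 0.19 for knockout against control on day 9, from -0.05 to 0.08 on day 7, from -0.04 to 0.13 for both days and from -0.12 to 0.04 with time in knockout cells. Changes near 0 took the other sign, none of them called. With that centring these were Gfra1 (0.029) and Gfra4 (0.0027) on day 7, Ngfr (0.13) and Lifr (0.047) on day 9 and Cntfr with time in knockout cells (0.0015). With normexp they were Gfra1 on day 9 (-0.031) and, for the mean effect, Gfra1 (-0.058) and Cntfr (-0.011). With time in control cells Gfra4 was at 0.00043 with quantile normalization, 0.00081 in the authors' values and 0.18 as the mean of its probes, and that mean gave 0.081 for Lifr on day 9. Without 1 array the day 7 changes ran from -0.22 to 0.024 for Gfra1, -0.33 to 0.60 for Gfra3, -0.35 to 0.10 for Gfra4, -0.34 to 0.43 for Ntrk3 and -0.44 to 0.053 for Cntfr. Those on day 9 ran from -0.31 to 0.14 for Ngfr and -0.38 to 0.052 for Lifr. With time they ran from -0.28 to 0.48 for Gfra3 in control and -0.39 to 0.096 for Cntfr in knockout cells. The difference between days ran from -0.54 to 0.70 for Ret and -0.34 to 0.11 for Gfra4, and the mean effect from -0.040 to 0.080 for Gfra1 and -0.10 to 0.15 for Cntfr.

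Arrays with the same replicate number deviated together in some pairs of groups only, with correlations from -0.25 to 0.46, so the numbers were not taken as a pairing. With the replicate number as a block, the receptors called were 0 on day 7, 1 on day 9, 3 with time in control cells, 1 in knockout cells, 0 for the difference and 1 for the mean effect, the same counts as without it. Among single probes the block brought under the threshold A_51_P393454 of Ntrk2 on day 9 (adjusted p = 0.0253) and with time in knockout cells (0.0372), and A_55_P2056533 of Ntrk3 on day 9 (0.0458).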

Other observations

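The 2 cases given here were chosen after their values were seen. In both, the knockout and control arrays did not overlap on either day and differed in opposite directions on the 2 days. The share of all genes or probes with this pattern was not counted, so the 2 cases are a description only. Bmpr1b, a BMP receptor gene, changed by -0.35 ± 0.14 (SE) on day 7 and 0.73 ± 0.14 on day 9, and the difference between the days was 1.07 ± 0.20 (limma adjusted p = 0.683). The Ntrk3 probe A_52_P500274 changed by 0.48 on day 7 and -0.34 on day 9, with a difference of -0.82 (limma adjusted p = 0.882). Neither difference passed.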
